A study of Homo sapiens with 3 samples.

Results

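ATP-binding cassette (ABC) transporter genes were examined in NB4 cells in which ARID1B had been silenced. Members were all protein-coding genes of the subfamilies ABCA to ABCG with a numbered symbol, and CFTR, the chloride channel that belongs to ABCC. There were 46 members among the 57773 gene IDs of the count matrix, namely 12 ABCA, 9 ABCB, 12 ABCC (with CFTR), 4 ABCD, 1 ABCE, 3 ABCF and 5 ABCG genes. All libraries came from NB4, a human cell line established from acute promyelocytic leukaemia. The control library came from cells with a non-target short hairpin RNA (shRNA), and the other 2 libraries from cells with an shRNA against ARID1B, hairpin 2 in one and hairpin 3 in the other. ARID1B encodes a subunit of BAF, a complex that moves nucleosomes.

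Most ABC proteins use ATP to move lipids, sterols, peptides, drugs or conjugated metabolites across a membrane. ABCA and ABCG members are known mainly for lipid and sterol transport, ABCB and ABCC members for drug, peptide, bile salt and conjugate export, and several ABCB members sit in mitochondria. ABCD members serve peroxisomes and lysosomes. ABCE1 and the ABCF proteins have no membrane domain and act on ribosomes. In leukaemia the family is studied mostly for drug efflux, through ABCB1 (P-glycoprotein), ABCC1 and ABCG2.

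Libraries held 59997475 to 62954803 counts. ARID1B went from 5268 counts in the control to 2209 under hairpin 2 and 2234 under hairpin 3, which was 43.3% and 42.2% of the control level after scaling. Among the promyelocyte markers, MPO (myeloperoxidase) had 682719 to 836096 counts, while ELANE (neutrophil elastase) had at most 10. Markers of another lineage moved with the knockdown: 9 of 12 tested eosinophil, basophil and mast cell genes were called higher (beside 5.49% of all genes), 7 at a mean CPM of 1 or more, 5 with robust empirical Bayes and 0 without a filter on low counts. The summed level of the 13-gene list was 93.8 CPM (counts scaled to library size) in the control, 2152 under hairpin 2 and 1134 under hairpin 3, with FCER1A at 0 counts. The part of this shift in any result below was not tested. In bulk RNA, fewer cells of a type and less RNA per cell cannot be told apart. With 1 control library, a difference between that library and the others also cannot be told apart from an effect of the hairpins.

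The members with the highest levels were a mitochondrial transporter and the ribosome-acting ABCE1, ABCF1 and ABCF2. To compare genes, levels were expressed as CPM per kilobase of exon. ABCB10, an inner mitochondrial membrane transporter needed for heme synthesis in erythroid cells, had 60.3 in the control, 47.4 under hairpin 2 and 52.1 under hairpin 3 on this scale, above every other member in each library. ABCF2 (37.1, 37.8 and 40.1), ABCF1 (38.9, 33.2 and 37.4) and ABCE1 (35.2, 35.0 and 38.1) followed, and their ranges over the 3 libraries overlapped. The other ribosome-acting member, ABCF3, was lower (9.14, 10.3 and 10). ABCA2, an endosomal and lysosomal lipid transporter, stood at 18.7, 14.6 and 15.8, next to ABCC1 (11.4, 17.3 and 13.9), with overlapping ranges. Per kilobase of the longest transcript the same 5 members led, but ABCB10 (66.5, 52.3 and 57.5) was above ABCE1 (56.2, 56.0 and 60.9) in the control library alone, so the order of these genes depends on the length used.

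**Figure D1:**
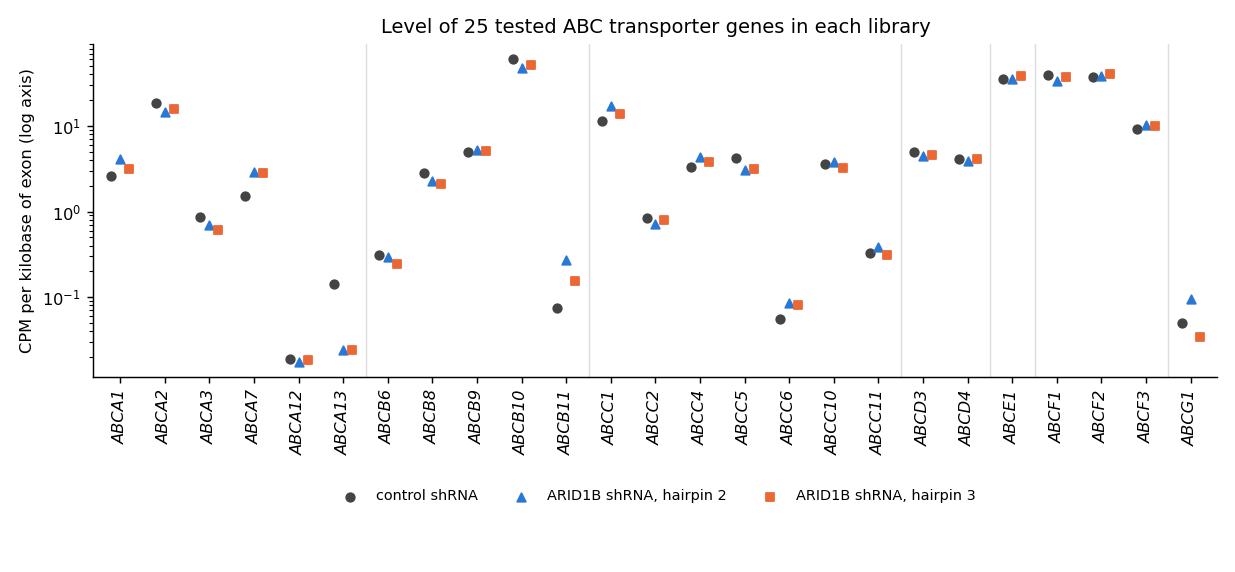
Level of 25 tested members in each library, in CPM per kilobase of exon on a log axis, with grey lines between subfamilies. ABCB10 is highest in all 3 libraries, and ABCA13, with 0.0644 on average, falls below the control point in both knockdown libraries.

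Many members were close to silent. In all, 27 of the 46 passed the filter on low counts and were tested, and 45 had at least 1 count in some library. The 19 members that were not tested had at most 6 counts in any library. ABCA5 was at 0 counts throughout, a count that leaves room for 0.0483 CPM in the control, 0.0499 CPM under hairpin 2 and 0.0481 CPM under hairpin 3. Among the drug efflux pumps, ABCB1 had 1, 0 and 0 counts in the control, hairpin 2 and hairpin 3 libraries, and ABCG2 had 1, 3 and 2. ABCB4, the phosphatidylcholine exporter of liver, had 2, 0 and 3 counts. CFTR had 0, 0 and 2. For these genes a difference was not detectable at this depth.

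With ARID1B silenced, ABCA7 and ABCB11 rose and ABCA13 and ABCC5 fell, while 23 tested members did not pass the test (edgeR quasi-likelihood test, Benjamini-Hochberg adjusted p under 0.05 over 20382 genes). The 4 called members were 14.8% of the 27 tested, beside 8.7% of all genes tested (5.49% higher and 3.21% lower). The median log2 fold change was -0.05 for the tested members and -0.01 for all genes, and the median size regardless of sign was 0.28 and 0.23. Both hairpins lay above the control for 10 members and below it for 12, and on opposite sides for 5. This was 37.0% above and 44.4% below, beside 36.9% and 41.0% of all genes tested. An unadjusted p under 0.05 in edgeR was reached by 11 of the 27 tested members, beside 20.7% of all genes tested. The number of members called depended on the method. DESeq2 called 2 of 25 members (ABCA7 and ABCA13), beside 6.15% of all genes. With robust empirical Bayes the same 2 of 27 were called (7.23% of all genes). Among genes whose mean CPM was 1 or more, the same 2 of 24 were called (6.41%). The same 4 as in the main test were called with library size alone (10.1% of all genes) and with upper quartile factors (9.03%). The legacy quasi-likelihood fit added ABCC1 (10.1% of all genes), ABCA13 alone passed against a fold change of 1.5 (2.24%), and no member and no other gene passed in edgeR without a filter on low counts, where 4 members had an unadjusted p under 0.05.

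**Figure D2:**
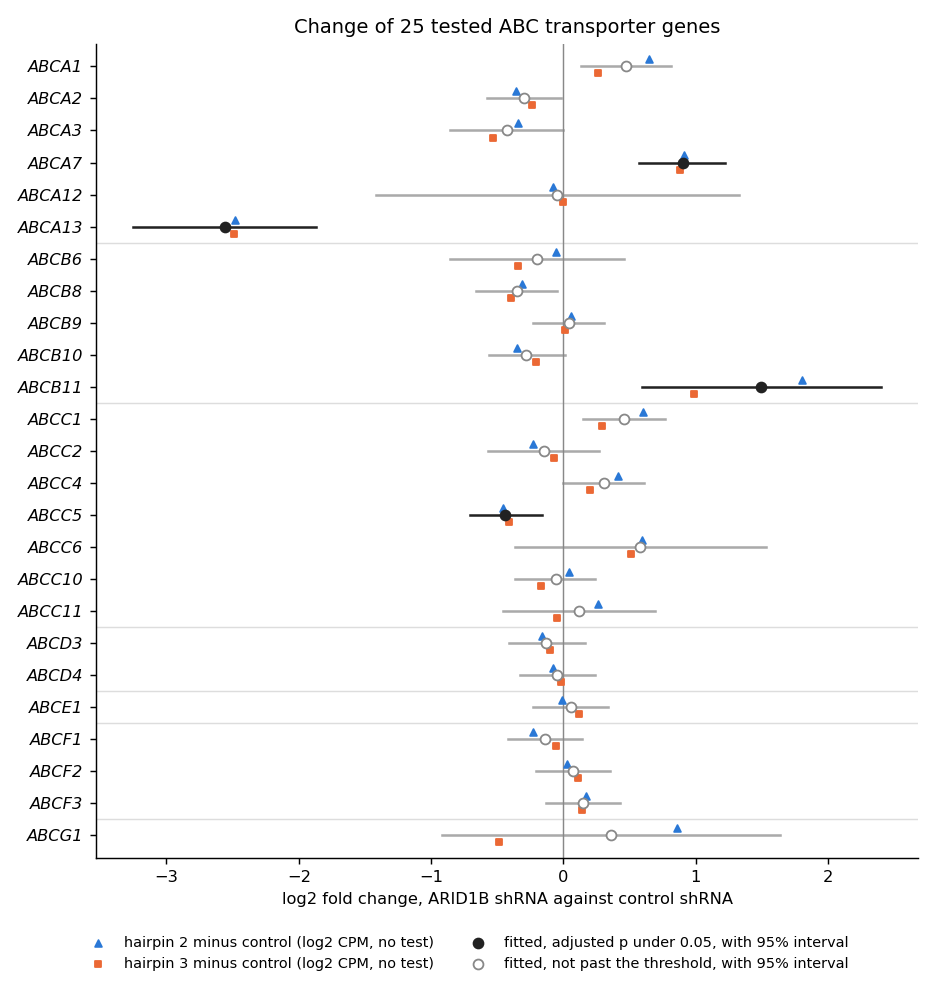
Fitted log2 fold change of 25 tested members with its 95% interval (circles and bars; filled where the adjusted p is under 0.05), beside the difference in log2 CPM (prior count 2) between each hairpin and the control. ABCA13 lies far to the left at -2.56, and the triangles of hairpin 2 lie farther from 0 than the squares of hairpin 3 for 18 of the 25 genes shown.

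In the ABCA subfamily 1 of 6 tested genes rose and 1 fell. ABCA13 (ENSG00000179869), a very large member whose transcript is known from neutrophil precursors, went from 171 counts in the control to 28 under hairpin 2 and 29 under hairpin 3. Both knockdown libraries thus lay far below the control and next to each other. Its ratio to the control was 0.169 under each hairpin (exact 95% counting interval 0.109 to 0.253 under hairpin 2 and 0.11 to 0.251 under hairpin 3). The fitted log2 fold change was -2.56 ± 0.326 (SE; edgeR adjusted p = 8.8e-05). It also passed in every alternative except the fit without a filter on low counts (edgeR adjusted p = 0.465 there, and down to 2.5e-06 in others). Of the azurophil granule genes in the promyelocyte list, CTSG (cathepsin G) fell from 6837 counts to 1672 and 2183. PRTN3 (proteinase 3) rose from 3363 to 14914 and 13672, while MPO and AZU1 did not pass (edgeR adjusted p = 0.733 and 0.27). In the mature neutrophil list, the late granule genes were near 0, with 0, 0 and 6 counts for LTF, 7, 13 and 3 for MMP8 and 0 throughout for CEACAM8. The summed level of that list was 133 CPM in the control, 155 under hairpin 2 and 181 under hairpin 3. Nearly all of it came from CSF3R (130, 149 and 178 CPM), which did not pass (edgeR adjusted p = 0.193). In the mature neutrophil list 1 of 3 tested genes was called higher, CXCR2. That call was lost in DESeq2, with robust empirical Bayes, at a mean CPM of 1 or more, against a fold change of 1.5 and without a filter on low counts. The part of these marker genes in the ABCA13 result was not tested.

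ABCA7 (ENSG00000064687), a phospholipid exporter linked to phagocytosis and to Alzheimer's disease risk, moved the other way. It had 791 counts in the control, 1437 under hairpin 2 and 1467 under hairpin 3, or 12.7 CPM against 23.7 ± 0.257 CPM (SD, n = 2). Both knockdown libraries lay above the control, as for 36.9% of all genes tested, and differed from each other by little. The ratio to the control was 1.88 (1.72 to 2.05) under hairpin 2 and 1.85 (1.69 to 2.02) under hairpin 3, and ABCA7 rose by 0.90 ± 0.153 on the log2 scale (edgeR adjusted p = 0.00125). This call was lost without a filter on low counts (edgeR adjusted p = 0.465) and against a fold change of 1.5 (0.199), and the lowest edgeR or DESeq2 adjusted p over the alternatives was 2.8e-04.

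The other tested ABCA genes did not pass. ABCA1, which loads cholesterol and phospholipid onto apolipoprotein A-I, had 1837 counts in the control, 2790 under hairpin 2 and 2214 under hairpin 3. Both values lay above the control, by unequal amounts, and the log2 fold change was 0.47 ± 0.161 (95% interval 0.13 to 0.81, edgeR adjusted p = 0.0888). ABCA2 had 13353, 10095 and 11362 counts, a log2 fold change of -0.30 ± 0.132 (edgeR adjusted p = 0.207). ABCA3, the surfactant lipid transporter of lung, had 422, 323 and 293 counts (-0.43 ± 0.202, edgeR adjusted p = 0.236). For ABCA2 and ABCA3 both hairpins lay below the control. ABCA12, a skin lipid transporter, had 11, 10 and 11 counts, and 6 ABCA members were not tested.

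In the ABCB subfamily 1 of 6 tested genes was called. ABCB11 (ENSG00000073734), the bile salt export pump of hepatocytes, went from 36 counts in the control to 126 under hairpin 2 and 74 under hairpin 3. Both knockdown values lay above the control, and hairpin 2 lay farther away. The ratio was 3.61 (exact 95% counting interval 2.48 to 5.39) under hairpin 2 and 2.05 (1.36 to 3.14) under hairpin 3. It rose by 1.49 ± 0.426 on the log2 scale (edgeR adjusted p = 0.0389, with alternatives between 0.0137 and 0.472). Even after this rise its level was low, 1.64 ± 0.642 CPM (SD, n = 2) against 0.58 CPM in the control. The call was lost with DESeq2 (adjusted p = 0.196), with robust empirical Bayes (0.0591 in edgeR), among genes at a mean CPM of 1 or more (0.103) and against a 1.5-fold change (0.236).

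Of 6 tested ABCB genes, 5 did not pass, mitochondrial transporters among them. ABCB10 had 15922 counts in the control, 12118 under hairpin 2 and 13827 under hairpin 3, both below the control (-0.28 ± 0.134, edgeR adjusted p = 0.259). ABCB8, linked to mitochondrial iron export, had 1619, 1268 and 1230 counts (-0.35 ± 0.143, edgeR adjusted p = 0.158), also with both hairpins below. ABCB6, a porphyrin transporter, had 100, 93 and 79 counts (-0.20 ± 0.311, edgeR adjusted p = 0.79). ABCB9, the lysosomal peptide transporter, had 4115, 4159 and 4170 counts (0.04 ± 0.128), and its 95% interval of -0.23 to 0.31 does not reach the fitted change of ABCA7. ABCB9 shares 20.7% of its exon length with a non-coding gene on the other strand that had 10152 to 10519 counts, and 12.5% and 12% with OGFOD2 and ARL6IP4. Strand use in the counting is not given, so the source of those reads is uncertain.

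Of 7 tested ABCC genes 1 fell and 0 rose. ABCC5 (ENSG00000114770), an exporter of cyclic nucleotides and other organic anions, had 2991 counts in the control, 2104 under hairpin 2 and 2255 under hairpin 3. In CPM this was 48.2 in the control and 35.6 ± 0.838 (SD, n = 2) in the knockdown libraries, with both below the control. It fell by 0.44 on the log2 scale (SE 0.13, edgeR adjusted p = 0.0481, with alternatives between 0.0249 and 1), close to the threshold. The call was lost with DESeq2 (adjusted p = 0.176), robust empirical Bayes (0.0559 in edgeR), among genes at a mean CPM of 1 or more (0.0732) and against a 1.5-fold change (1).

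ABCC1, the multidrug resistance protein that exports glutathione conjugates and leukotriene C4, had the highest level of the subfamily per kilobase of exon. It had 5343 counts in the control, 7859 under hairpin 2 and 6577 under hairpin 3, so both libraries lay above the control and hairpin 2 farther. The log2 fold change of 0.46 ± 0.147 did not pass (95% interval 0.15 to 0.77, edgeR adjusted p = 0.0674), but it passed in the legacy quasi-likelihood fit (0.0431, the lowest of alternatives that ran up to 1). ABCC4, which exports cyclic nucleotides and prostaglandins, had 1766, 2271 and 2036 counts (0.31 ± 0.144, edgeR adjusted p = 0.237). ABCC10, a broad drug exporter, had 1827, 1816 and 1635 counts (-0.06 ± 0.144, edgeR adjusted p = 0.871). For ABCC2, ABCC6 and ABCC11 the log2 fold changes were -0.15, 0.58 and 0.12 and none passed. ABCC6 has near-identical pseudogene copies, of which ABCC6P1 had 2 to 3 counts and ABCC6P2 had 0, so its 26, 39 and 38 counts are uncertain. The channel regulators ABCC8 and ABCC9 had at most 2 counts, and KCNJ11, a potassium channel pore that pairs with them, had 84, 27 and 64.

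Of 8 tested ABCD, ABCE, ABCF and ABCG genes 0 passed in edgeR, or in DESeq2, and 1 had an unadjusted p under 0.05 in edgeR. ABCD3, the importer of branched-chain fatty acids and bile acid precursors, had 2329, 2017 and 2189 counts (-0.13 ± 0.134), and ABCD4, of the lysosomal cobalamin route, had 2250, 2056 and 2234 (-0.05 ± 0.134).

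The ribosome-acting members lay close to the control in all libraries. ABCE1, which splits ribosomes after termination, had 13681 counts in the control, 13197 under hairpin 2 and 14885 under hairpin 3. Its log2 fold change was 0.06 ± 0.135, with a 95% interval of -0.23 to 0.34. ABCF1, which works with initiation factor eIF2, had 10921, 9014 and 10553 counts (-0.14 ± 0.134). ABCF2 had 9614, 9493 and 10440 counts (0.07 ± 0.131) and ABCF3, a partner of GCN2-linked translation control, 2953, 3211 and 3257 (0.15 ± 0.13). Of these 4 genes none had a 95% interval reaching beyond 0.43 on the log2 scale in either direction.

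ABCG genes were hardly expressed. ABCG1, the cholesterol exporter of macrophages, had 19 counts in the control, 35 under hairpin 2 and 13 under hairpin 3, on both sides of the control (0.36 ± 0.603, edgeR adjusted p = 0.806). ABCG4, ABCG5 and ABCG8 had at most 5 counts in any library. The summed level of the 5 ABCG genes was 0.403 CPM in the control, 0.715 under hairpin 2 and 0.321 under hairpin 3.

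**Figure D3:**
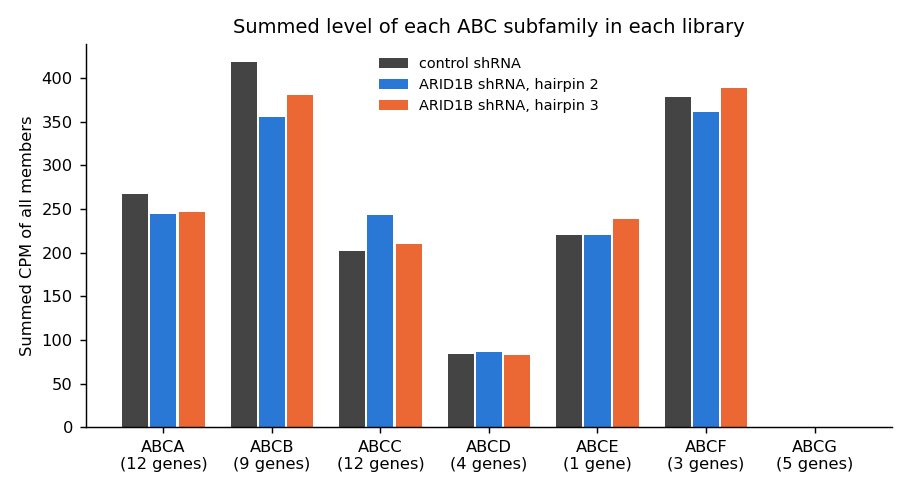
Summed CPM of all members of each subfamily in each library, 1 bar per library, with the axis starting at 0. ABCB is tallest in the control (418) and ABCF under hairpin 2 (361) and hairpin 3 (389), ABCG is below 1 CPM and cannot be seen, and ABCC is higher under hairpin 2 (243) than in the control (202) and under hairpin 3 (210).

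The family as a whole kept nearly the same summed level. All 46 members together had 1570.1 CPM in the control, 1509.8 under hairpin 2 and 1548.9 under hairpin 3. The ABCB share was 26.6% in the control, 23.5% under hairpin 2 and 24.6% under hairpin 3, and the ABCC share was 12.9%, 16.1% and 13.6%. At a mean CPM of 1 or more, 3 of 24 members were at least 1.5-fold from the control under both hairpins on the log2 CPM scale, with 2 counts added as a prior (ABCA7 and ABCB11 above, ABCA13 below), beside 8.12% of 14977 genes. Under hairpin 2 alone 6 members were that far from the control, ABCA1 and ABCC1 among them, and under hairpin 3 alone 3 were, beside 14.9% and 10.2% of all genes. At 2-fold on that scale 1 member was left, ABCA13 (3.04% of all genes). ABCB11 missed it there by little (0.99 under hairpin 3), while its count ratios without a prior, 3.61 and 2.05, were both above 2. At a mean CPM of 5 or more, 1 of 20 members was at least 1.5-fold away, ABCA7 (beside 5.97% of all genes). Hairpin 2 lay farther from the control than hairpin 3 for 20 of 27 tested members (74.1%), beside 58.9% of all genes tested. The 13 eosinophil and mast cell markers also had a higher summed level under hairpin 2 (2152 CPM) than under hairpin 3 (1134 CPM). Single markers were split, however. PRG3, CPA3, TPSAB1, TPSB2, SIGLEC8 and IL5RA had a higher CPM under hairpin 3, and the other tested markers under hairpin 2. Whether these markers had a part in the difference between hairpins was not tested.

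Promoters of the 4 called members were read to show what lies next to their starts. The last 100 bases before each RefSeq start are printed 5′ to 3′ on the gene's strand (GRCh38.p14, not the build of the counts). Capitals mark matches on either strand to any of 5 motifs. The GC box was searched as GGGCGG and the CCAAT box by the letters in its name. The letters of the GATA motif were AGATAA, those of the E-box were CACGTG and those of the AP-1 motif were TGACTCA, and no matches overlapped in these stretches.
ABCA7 (chr19:1040007-1040106, plus strand): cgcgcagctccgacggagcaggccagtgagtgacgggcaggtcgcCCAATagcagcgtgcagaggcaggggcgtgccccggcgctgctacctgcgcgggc
ABCA13 (chr7:48171358-48171457, plus strand): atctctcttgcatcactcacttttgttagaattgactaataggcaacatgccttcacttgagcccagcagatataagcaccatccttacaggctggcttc
ABCB11 (chr2:169031325-169031424, minus strand): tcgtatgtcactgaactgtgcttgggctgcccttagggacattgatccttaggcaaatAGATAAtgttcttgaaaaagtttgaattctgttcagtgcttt
ABCC5 (chr3:184017885-184017984, minus strand): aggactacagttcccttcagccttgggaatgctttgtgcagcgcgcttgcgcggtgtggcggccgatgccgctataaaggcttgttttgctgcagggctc
The ABCA7 stretch held a CCAAT box and the ABCB11 stretch a GATA motif, while the ABCA13 and ABCC5 stretches held none of the 5. In the 250 bases before the start, 33.0% of 27305 RefSeq promoters held a CCAAT box and 9.37% this GATA motif, and 7 and 4 of the 36 members with a promoter in the table did. A GC box lay in that longer window of ABCA7 and ABCC5, as in 18 of the 36 members and 42.3% of all promoters, an E-box was in 4 members (6.49% of all) and an AP-1 motif in 0 (4.16% of all). The matches are descriptions of sequence, and whether NB4 cells use these starts was not tested.

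Genes that supply, follow or regulate the ABC proteins were examined in 10 lists. Over these lists 122 distinct genes were tested, of which 17 rose and 3 fell (16.4%, beside 8.7% of all genes tested), with a median log2 fold change of 0.07. All 20 calls were lost without a filter on low counts, and 7 held against a fold change of 1.5. The lists were written with earlier results of these data known, so their counts are descriptions. In the leukotriene route, whose product ABCC1 exports, 3 of 8 rose and 0 fell, with a median of 0.51. ALOX5AP, the activator of 5-lipoxygenase, went from 63 counts to 481 and 219 (2.50 ± 0.425, edgeR adjusted p = 0.00122, with alternatives between 1.5e-05 and 0.47). LTC4S, leukotriene C4 synthase, went from 365 to 829 and 625 (1.02 ± 0.211), and GGT1, which trims glutathione conjugates outside the cell, from 2776 to 6990 and 5433 (1.19 ± 0.165). ALOX5 itself had 12, 43 and 24 counts and did not pass (edgeR adjusted p = 0.153). ALOX5AP was lost with robust empirical Bayes.

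Glutathione genes other than LTC4S and GGT1 mostly did not pass. Of 19 tested, 3 rose and 0 fell, with a median of -0.02. The third was NQO1, a quinone reductase, from 663 counts to 2236 and 1443 (1.5 ± 0.223 on the log2 scale), a call lost with robust empirical Bayes. Among 14 tested xenobiotic receptors and regulators 0 rose and 1 fell, FOXO3, from 2821 to 1373 and 1586 (-0.91 ± 0.136, edgeR adjusted p = 3.8e-04, with alternatives between 2.5e-05 and 0.465). NFE2L2, KEAP1 and the aryl hydrocarbon receptor AHR had log2 fold changes of 0.07, 0.29 and 0.05.

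Of 17 tested sterol efflux partners 1 rose, NCEH1, a cholesteryl ester hydrolase (650 counts to 1164 and 1064, 0.80 ± 0.166), and 0 fell, with a median of 0.08. The liver X receptors NR1H3 and NR1H2, which drive ABCA1 and ABCG1, had 0.11 ± 0.2 and -0.04 ± 0.131, and their partner RXRA 0.05 ± 0.133.

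Peroxisomal, cobalamin and heme partners each held a few calls. Beside the peroxisomal ABCD genes, 2 of 17 tested genes rose and 0 fell: SLC27A2, a very long chain acyl-CoA synthetase, from 4151 counts to 8186 and 9328 (1.10 ± 0.138), and ACSL1, from 5641 to 8722 and 8768 (0.65 ± 0.132). Beside ABCD4, 2 of 10 rose and 1 fell. These were the transcobalamin TCN2 (0.91 ± 0.222), its receptor CD320 (0.62 ± 0.149) and methionine synthase MTR (-0.46 ± 0.131), of which TCN2 and MTR were lost with DESeq2 and among genes at a mean CPM of 1 or more. Beside the mitochondrial ABCB genes, 2 of 13 rose and 0 fell. HMOX1, which breaks down heme, went from 26 counts to 225 and 91 (2.62 ± 0.544), and ALAS1, the first enzyme of heme synthesis, from 6030 to 8979 and 8265 (0.54 ± 0.136). HMOX1 was lost with robust empirical Bayes, and both were lost among genes at a mean CPM of 1 or more.

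Of 15 tested ribosome recycling and GCN2 genes, partners of ABCE1 and the ABCF proteins, 0 passed in either direction, with a median of 0.01 (0 also in DESeq2, and 1 at an unadjusted p under 0.05 in edgeR). Their log2 fold changes ran between -0.17 for IMPACT and 0.28 for EIF2S1. TAP1 and TAP2, which encode the ABCB2 and ABCB3 proteins but carry other symbols, had log2 fold changes of -0.17 ± 0.14 and 0.15 ± 0.13 and did not pass, while 6 of the 11 tested peptide loading genes, among them HLA-C (1.39 ± 0.162) and PDIA3 (0.90 ± 0.161), rose and TAPBP fell (-0.49 ± 0.127), a call lost with DESeq2.

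**Figure D4:**
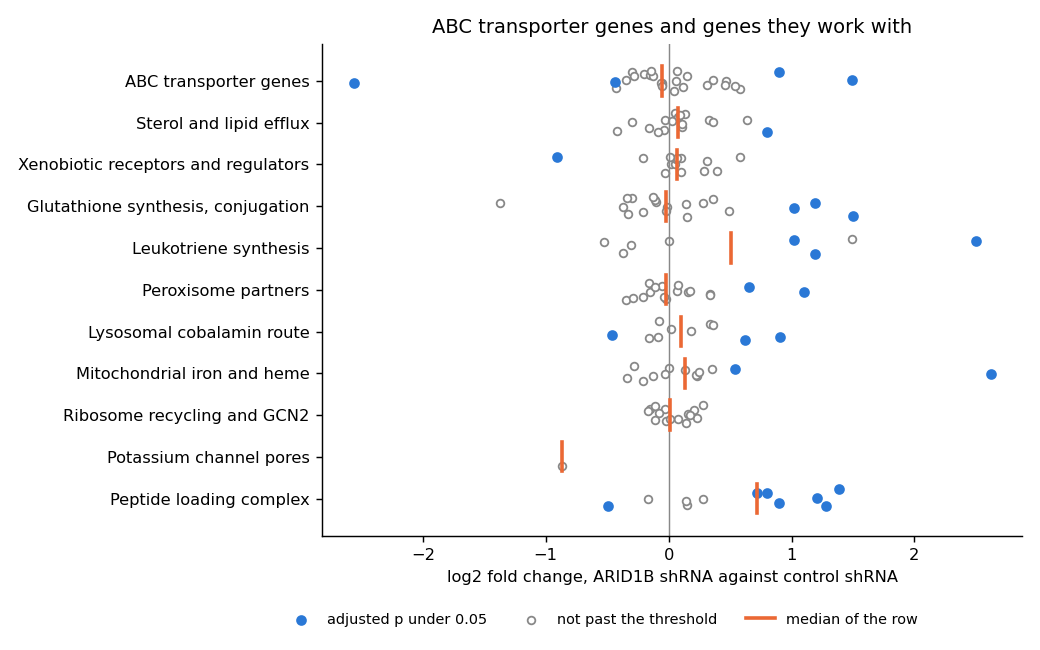
Log2 fold change of each tested ABC transporter gene (top row) and of each tested gene in the 10 partner lists, with called genes filled and the median of each row as a bar; vertical scatter within a row has no meaning. The ribosome row holds no filled point, and the leukotriene and peptide loading rows have medians of 0.51 and 0.72.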

How the data were processed

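Polyadenylated RNA was sequenced from NB4 cells with a TruSeq kit, 1 control and 2 ARID1B shRNA libraries. The authors deposited whole-number read counts per Ensembl gene ID, not normalized. STAR, featureCounts, Cufflinks and hg19 are named, per the submitters' processing notes. The sources used here give no versions, annotation or strand setting, so reads over antisense or overlapping genes cannot be assigned with certainty. Whether libraries came from separate cultures is not in the labels. The p-values rest on the spread between these samples alone, pooled largely over genes and possibly a technical one.

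Names and exon lengths came from GENCODE 29, which named 52338 of 57773 IDs. It is on another build than the counts, and served also for exon overlap between genes, while none of its coordinates are printed. Genes were filtered with filterByExpr (minimum count 10), scaled by TMM and tested in edgeR 4.0.16 (R 4.3.3) with glmQLFit (legacy = FALSE) and glmQLFTest, two-sided, at a Benjamini-Hochberg adjusted p under 0.05. The fit had 1 residual degree of freedom, from the difference between the hairpins, and treats the lone control as varying like them. Each gene's variance was drawn toward the trend over all genes tested (prior degrees of freedom 14.8). Standard errors, intervals and p-values therefore rest mostly on that trend. Each standard error was obtained as log2 fold change over the root of F. The procedure was tested on simulated data. Floors (3 counts) and exact intervals of count ratios (95%) cover counting error only. Alternatives included DESeq2 1.42.0, other scalings and filters, robust and legacy fits, a test against a fold change of 1.5 and leaving out each hairpin.

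Members, partner lists and markers were chosen with earlier results of these data known. Named were all called members, up to 3 uncalled ones per subfamily by level, and up to 4 genes per partner list, called ones first. Outside this rule, ABCA12, ABCB6, ABCB8, ABCC2, ABCC6, ABCC11, the untested members, CTSG, PRTN3, AZU1, PRG3, CPA3, TPSAB1, TPSB2, SIGLEC8, IL5RA, LTF, MMP8, CEACAM8, CXCR2, CSF3R, NR1H3, NR1H2, AHR, ALOX5, TAP1, TAP2, TAPBP, IMPACT, EIF2S1 and the promoter motifs were chosen after values were seen. Protein sequences were not used here. Some members are counted but not reported here by name. MRC1 and GSTT1 had no matching ID. In the other marker lists, genes called higher and lower were 2 and 2 of 9 tested (promyelocyte), 2 and 0 of 6 (monocyte and macrophage), 1 and 0 of 3 (mature neutrophil), 2 and 0 of 5 (T, NK and B cell), 1 and 0 of 3 (erythroid and megakaryocyte) and 0 and 1 of 4 (epithelial, fibroblast and packaging cell).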

Additional observations from a re-analysis of the deposited data

How the results depend on the processing

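All 4 called members kept their direction in every alternative run. Members called higher, 2 at first, were 1 in DESeq2, 1 at a mean CPM of 1 or more, 1 with robust empirical Bayes, 0 against a fold change of 1.5 and 0 without a filter on low counts; members called lower, also 2, were 1, 1, 1, 1 and 0. The cause was not tested. Of all genes, 1119 were called higher and 655 lower. The higher count was 622 at a mean CPM of 1 or more, 325 against a fold change of 1.5 and 0 without a filter, and the lower count 338, 132 and 0, with 282 in DESeq2. Without a filter edgeR called 0 genes although 3218 (4 of them members) had an unadjusted p under 0.05. DESeq2, which filters low genes itself, called 1043 of the 16966 genes to which it gave an adjusted p. Among partner genes 20 were called, 7 against a fold change of 1.5 and 0 without a filter. Upper quartile factors gave 991 higher and 850 lower genes, 53.8% higher in place of 63.1%, and DESeq2 gave 73.0% higher; neither changed the direction of a called member.

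Members at least 1.5-fold from the control under both hairpins, 3 at first on the log2 CPM scale with 2 prior counts, were 1 at a mean CPM of 5 or more and 1 at 2-fold, where ABCB11 is left out by the prior. Leaving out 1 hairpin library gave 3 to 6, the 6 without hairpin 3. Such fits have no residual degrees of freedom, so they gave values and no test. No paired analysis was possible because there was 1 control library and the labels name no pairing. Depth limits the 19 members with at most 6 counts.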
